A study of Drosophila melanogaster with 6 samples.

Results

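Glutathione S-transferases are encoded in Drosophila by a family of genes whose symbols start with GstD, GstE, GstO, GstS, GstT or GstZ, after the Delta, Epsilon, Omega, Sigma, Theta and Zeta classes. The members were chosen by symbol alone, and each gene was read on its brightest probe set among those that name no other gene. This gave 34 of the 35 such genes in RefSeq's gene table, out of 11982 genes with a probe set of their own; GstE8 had no such probe set in the annotation used here. Both GstE9 and GstO2 had a further probe set, which brings the family to 36 probe sets.

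The cells were Drosophila S2 cells, an embryo-derived line that resembles macrophage-like blood cells. The dBigH1-induced group comprised 3 arrays of S2 cells carrying dBigH1::FLAG, an inducible tagged form of the embryonic linker histone, which had been kept in 0.3 mg/ml hygromycin B until the experiment. The S2 control group comprised 3 arrays of cells described as wild type. Any other way in which these lines differ cannot be told apart from dBigH1. Cells of both groups received 1 mM copper sulphate for 24 h, so no value without copper was available. The labels do not say whether replicates were separate cultures or whether the dBigH1 line was a single clone, and p-values therefore measure the spread between these samples only, which may be technical.

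Glutathione S-transferases join the tripeptide glutathione to reactive, electrophilic compounds, which makes these compounds more soluble and easier to export. The Delta and Epsilon classes are found in insects and their relatives, lie in tandem gene clusters and are known for the breakdown of insecticides and of lipid peroxidation products. In flies, the transcription factor CncC, held in check by Keap1, drives GstD1 and other members under oxidative stress, and GstD1 reporters are a common readout of this pathway. The supply of glutathione itself depends on glutamate-cysteine ligase, whose subunits are encoded by Gclc and Gclm.

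The array values are log2 signals, each the summary of the several probes of a probe set. Array medians lay between 6.31 and 6.33, and precision is limited by having 3 arrays a group. BigH1 read 13.47, 13.47 and 13.43 on the dBigH1-induced arrays and 4.86, 5.42 and 5.30 on the S2 control arrays. Of 17 measured haemocyte and S2 marker genes, 5 rose and 4 fell in dBigH1-induced cells, and their summed log2 signal was 14.83 to 14.85 in those cells and 14.59 to 14.63 in S2 control cells. These 52.9% called stand beside 30.5% of all genes, and 42.3% of those above the median signal, where 14 of the 17 lie. By log2 change, the markers that fell were Sr-CI (-1.09), He (-0.71), NimC2 (-0.42) and NimC1 (-0.35). Those that rose were Pxn (0.65), srp (0.50), Col4a1 (0.40), vkg (0.36) and eater (0.24). The haemocyte gene Hml did not pass, at 11.53 in dBigH1-induced and 11.47 in S2 control cells. The crystal cell gene lz was near the bottom of the signal range, at 3.51 in dBigH1-induced and 3.59 in S2 control cells. Of marker genes of other tissues, the fat body list had 1 of 6 higher and the germline list 1 higher and 1 lower of 4. The lists of gut (3 genes), neuron (4) and muscle (2) had 0 past the adjusted limma test. At an unadjusted limma p under 0.05 stood 3 fat body genes (Yp1, Yp2 and Yp3, all higher) and 2 germline genes. For gut, neuron and muscle these counts were 0, 0 and 1. Among RNA quality measures, the 5′ minus 3′ log2 signal of the Act5C control was -1.79 ± 0.0778 in dBigH1-induced and -1.26 ± 0.0869 in S2 control cells (SD, n = 3 each), while the GAPDH control differed by -0.08 and the actin control by 0.03. The part of this 5′ to 3′ difference in the changes below was not tested. In such bulk RNA, fewer cells of a type and less RNA per cell cannot be told apart.

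Most of the family was lower in cells with dBigH1. In dBigH1-induced relative to S2 control cells, 19 of the 34 genes fell, 1 rose and 14 did not pass an adjusted p of 0.05 in limma. Of the family 55.9% fell and 2.94% rose, or 58.8% in either direction, against 16.0%, 14.5% and 30.5% of all genes. Most members had probe sets brighter than the median of 6.33, where changes pass more often. Of these 29 members 58.6% fell and 3.45% rose, beside 21.3% and 21.1% of the 6984 genes above that median. The median log2 change was -0.19 over the family and -0.01 over all genes.

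The changes were small in fold, although larger in the middle of the family than over all genes. The median size of log2 change was 0.21 over the family and 0.11 over all genes. Above the median signal it was 0.23 and 0.15. The falls ranged from 1.12-fold to 1.47-fold. By 2-fold or more, 0 of the 34 genes changed, which for so few genes is near the 1.47% of all genes that did so and passed. The 2 groups of arrays did not overlap for 27 of the 34 members (79.4%), with the induced arrays lower for 25 of them and higher for 2. Of all genes 45.4% did not overlap. Above the median signal the shares were 86.2% of the 29 members and 60.6% of all genes. Each member's deviation from its own mean over the 6 arrays had a family median of -0.11, -0.07 and -0.10 on the dBigH1-induced arrays and 0.10, 0.04 and 0.12 on the S2 control arrays. Over all genes the same median lay between -0.01 and 0.01 on every array. Thus each of the 3 induced arrays stood below each of the 3 control arrays for the middle of the family.

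**Figure D1:**
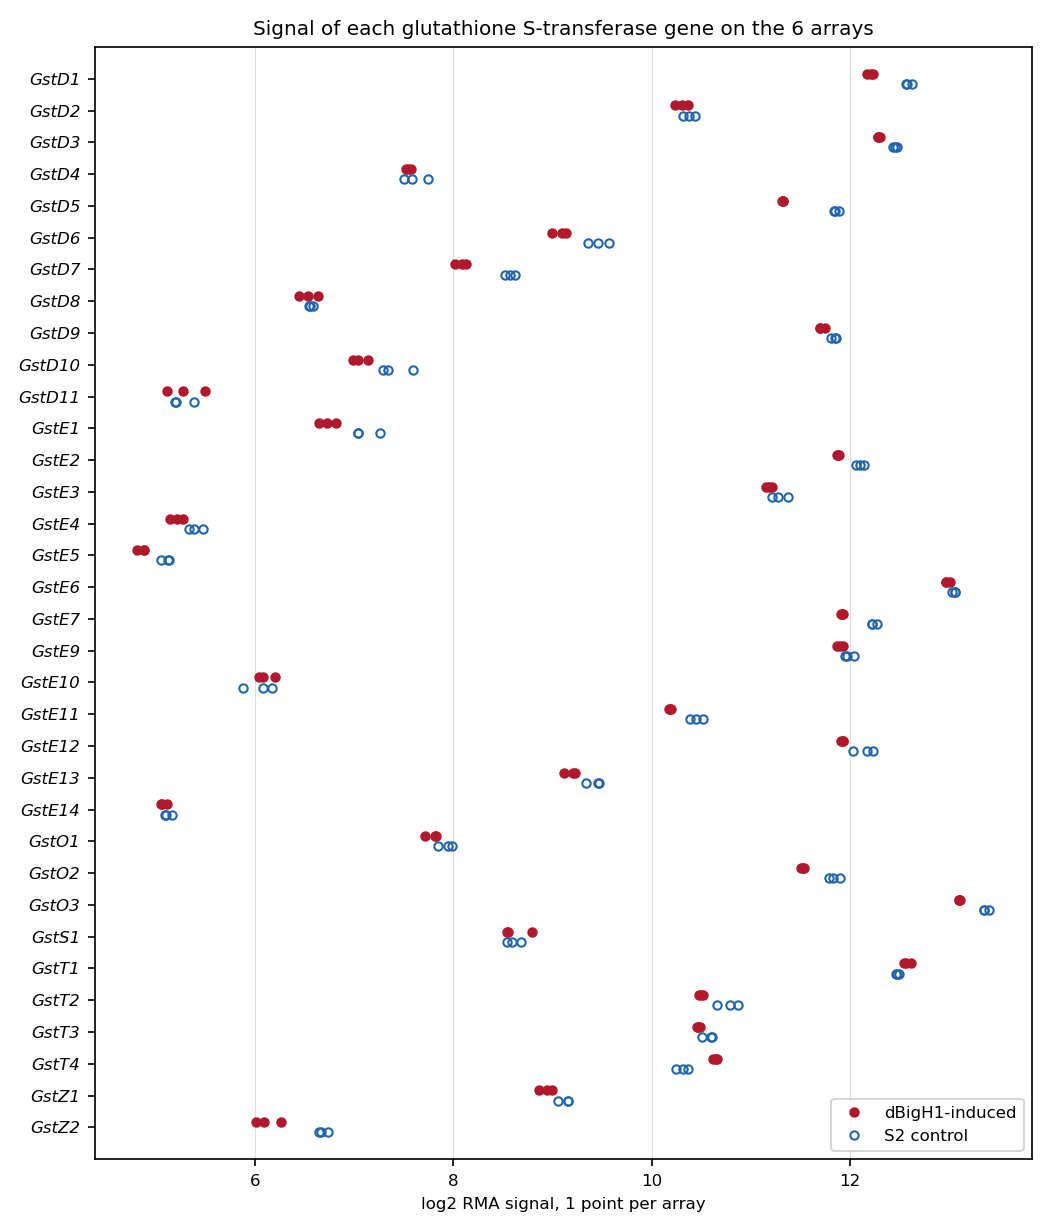
Each row is 1 gene, and each point is the log2 RMA signal of 1 array (filled: 3 dBigH1-induced arrays; open: 3 S2 control arrays). The 2 groups do not overlap for 27 of the 34 genes, with the filled points to the left for 25 of them and to the right for GstT1 and GstT4.

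In the Delta class, 6 of 11 measured genes fell and 0 rose, while 7 had an unadjusted p under 0.05. The median log2 change of the class was -0.16. GstD1, which codes for an enzyme able to break down DDT, read 12.23, 12.17 and 12.21 on the dBigH1-induced arrays and 12.57, 12.58 and 12.63 on the S2 control arrays. The lowest control array thus stood above the highest induced one. GstD1 fell 1.31-fold, with a log2 change of -0.39 (SE 0.05, adjusted p = 0.0003295). GstD5 showed the largest fall of the class. It read 11.32, 11.33 and 11.33 on dBigH1-induced arrays and 11.85, 11.84 and 11.89 on S2 control arrays, and fell by 0.53 (SE 0.05, adjusted p = 3.463e-05), 1.45-fold. The arrays of each group lay within 0.05 of each other, far less than the gap between the groups.

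GstD4, on one side of GstD5 along the chromosome, did not pass, while GstD6 and GstD7, on the other side, also fell. GstD6 read 9.10, 8.99 and 9.14 in dBigH1-induced cells and 9.36, 9.46 and 9.57 in S2 control cells, and fell by 0.39 (SE 0.07, adjusted p = 0.002128). GstD7 read 8.02, 8.13 and 8.09 in dBigH1-induced cells and 8.52, 8.62 and 8.57 in S2 control cells, and fell by 0.49 (SE 0.05, adjusted p = 0.0001211). For neither gene did the groups overlap. GstD10 read 6.99, 7.14 and 7.04 in dBigH1-induced cells and 7.34, 7.29 and 7.59 in S2 control cells, and fell by 0.35 (SE 0.08, adjusted p = 0.01051). GstD3 showed the smallest called fall of the family. Its arrays read 12.29, 12.31 and 12.29 in dBigH1-induced cells and 12.44, 12.48 and 12.46 in S2 control cells, a change of -0.16 (SE 0.05, adjusted p = 0.03145). Without any 1 of the 6 arrays GstD3 no longer passed (adjusted p = 0.05462 to 0.09787).

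The other 5 Delta genes did not pass, and for some the interval allows a fall like that of GstD3. GstD9 read 11.70, 11.75 and 11.70 in dBigH1-induced cells and 11.86, 11.81 and 11.85 in S2 control cells, which do not overlap, with a log2 change of -0.13 (95% interval -0.24 to -0.02, adjusted p = 0.08559). The change was -0.07 for GstD2 (-0.20 to 0.06), -0.06 for GstD4 (-0.21 to 0.09) and -0.02 for GstD8 (-0.16 to 0.11). GstD11 stood at 5.29 ± 0.192 in dBigH1-induced and 5.26 ± 0.110 in S2 control cells (SD, n = 3 each), below the median signal, where array differences are known to be compressed. The intervals of GstD2, GstD4 and GstD8 end above the fall of GstD5, so a change of that size was not seen for them.

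Among the 13 measured Epsilon genes 8 fell and 0 rose, the same 8 of 13 as at an unadjusted p under 0.05, and the class median was -0.22. GstE1 read 6.72, 6.64 and 6.81 on the dBigH1-induced arrays and 7.04, 7.26 and 7.04 on the S2 control arrays. It fell by 0.38 (SE 0.08, adjusted p = 0.004053), or 1.31-fold, the largest fall of this class. GstE7 read 11.93, 11.92 and 11.91 in dBigH1-induced cells and 12.22, 12.28 and 12.22 in S2 control cells, and fell by 0.32 (SE 0.05, adjusted p = 0.0009833). The arrays of both genes were lower in every induced sample than in any control sample. GstE2 read 11.89, 11.88 and 11.87 in dBigH1-induced cells and 12.14, 12.10 and 12.06 in S2 control cells, and fell by 0.22 (SE 0.05, adjusted p = 0.008677).

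The Epsilon genes GstE11, GstE12 and GstE13, which also fell, lie apart from the main cluster. GstE11 read 10.19, 10.20 and 10.18 in dBigH1-induced cells and 10.45, 10.39 and 10.52 in S2 control cells, and fell by 0.26 (SE 0.05, adjusted p = 0.004697). GstE12 read 11.91, 11.93 and 11.93 in dBigH1-induced cells and 12.24, 12.03 and 12.17 in S2 control cells, and fell by 0.23 (SE 0.06, adjusted p = 0.0207). The control arrays of GstE12 spread more than the induced ones, and its adjusted p was 0.06325, 0.05799 and 0.05478 without dBigH1-induced replicate 1, 2 or 3 and 0.07036 and 0.06101 without S2 control replicate 1 or 3. GstE13 averaged 9.19 ± 0.0549 in dBigH1-induced and 9.42 ± 0.0736 in S2 control cells (SD, n = 3 each) and fell by 0.24 (SE 0.06, adjusted p = 0.01334), with an adjusted p of 0.05382 without dBigH1-induced replicate 1.

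Dim probe sets made up the rest of the Epsilon falls. GstE5 read 4.88, 4.81 and 4.88 in dBigH1-induced cells and 5.05, 5.12 and 5.13 in S2 control cells, and fell by 0.25 (SE 0.05, adjusted p = 0.00554). GstE4 read 5.14, 5.27 and 5.21 in dBigH1-induced cells and 5.33, 5.38 and 5.47 in S2 control cells, and fell by 0.19 (SE 0.06, adjusted p = 0.04059). Detection calls were not used here. GstE4 lost its call without any 1 of the 3 induced arrays (adjusted p = 0.1344, 0.05192 and 0.0969 without replicate 1, 2 and 3) and without S2 control replicate 2 (0.06782) or 3 (0.1306).

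The 5 Epsilon genes that did not pass included GstE6, which read 12.97, 12.97 and 13.01 in dBigH1-induced cells and 13.06, 13.03 and 13.06 in S2 control cells. Its change of -0.06 (95% interval -0.17 to 0.04) was measured at the 98.8 percentile of all signals, where brightness can saturate. GstE3 changed by -0.11 (-0.23 to 0.02), GstE9 by -0.08 (-0.20 to 0.03) and GstE10 by 0.06 (-0.12 to 0.24). The dimmer probe set of GstE9 also did not pass (-0.12, SE 0.07, adjusted p = 0.2452). GstE14, known as noppera-bo and required for ecdysone synthesis in the prothoracic gland, had a dim signal of 5.07 ± 0.0276 in dBigH1-induced and 5.12 ± 0.0422 in S2 control cells (SD, n = 3 each, change -0.04, -0.15 to 0.07).

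**Figure D2:**
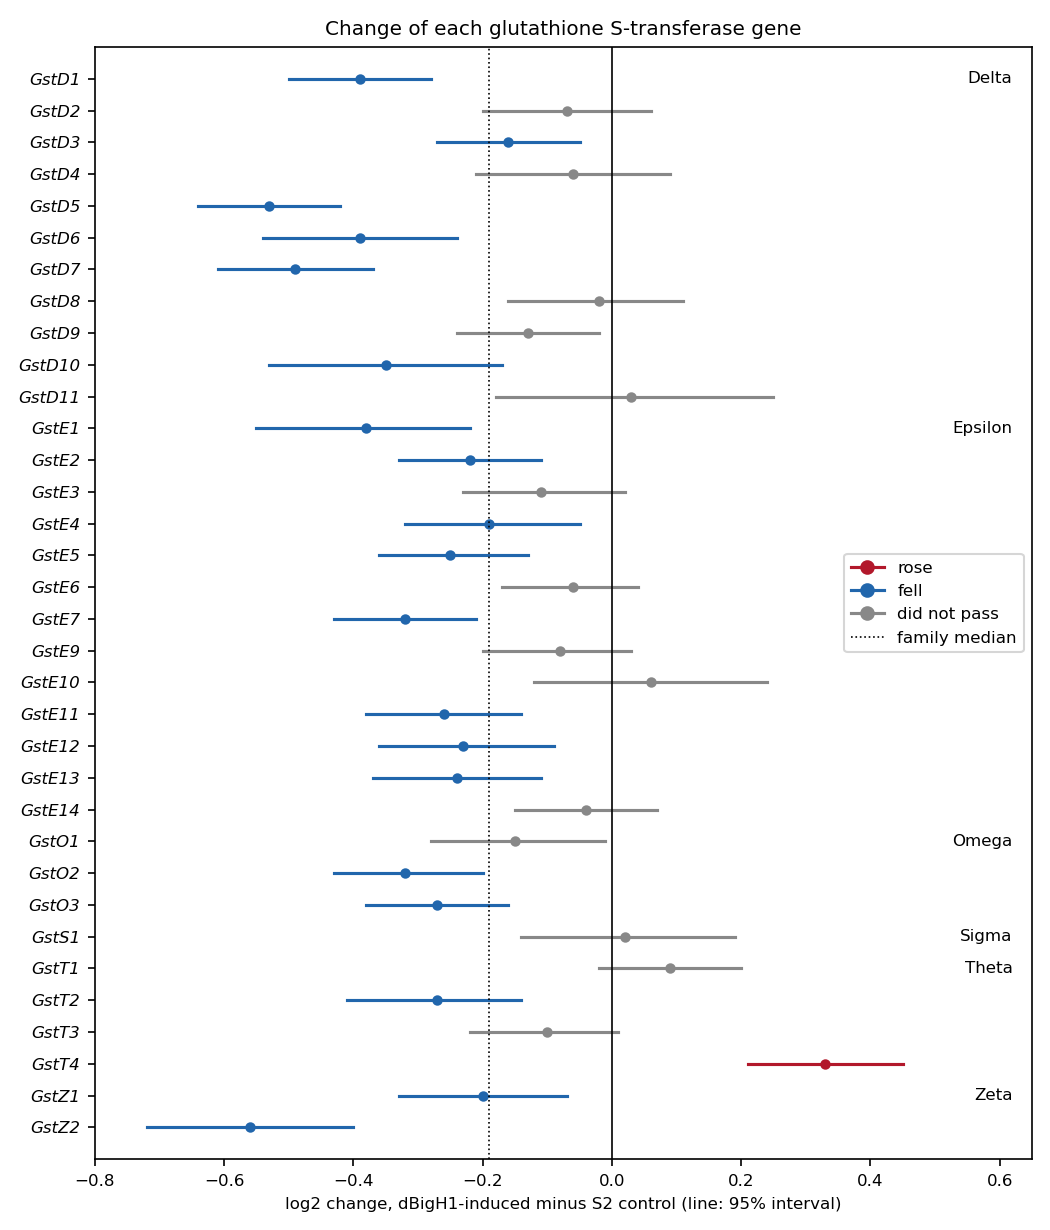
Points are log2 changes, dBigH1-induced minus S2 control, with 95% intervals from limma, for the 34 genes by class (blue: fell; red: rose; grey: did not pass). Most points lie left of 0, with the family median at -0.19 (dotted), and GstT4 at 0.33 is the member that rose.

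Omega enzymes use a cysteine in their active site and can reduce dehydroascorbate. All 3 measured genes had lower arrays in dBigH1-induced cells, and 2 of them fell. GstO3 read 13.10, 13.10 and 13.11 in dBigH1-induced cells and 13.41, 13.36 and 13.36 in S2 control cells, and fell by 0.27 (SE 0.05, adjusted p = 0.002352). GstO2 read 11.54, 11.51 and 11.53 in dBigH1-induced cells and 11.90, 11.79 and 11.83 in S2 control cells, and fell by 0.32 (SE 0.05, adjusted p = 0.001474). Its further probe set, at 10.02 in dBigH1-induced and 10.41 in S2 control cells, fell by 0.39 (SE 0.05, adjusted p = 0.000269), so both probe sets of GstO2 fell. GstO1 read 7.71, 7.81 and 7.82 in dBigH1-induced cells and 7.99, 7.84 and 7.94 in S2 control cells, a change of -0.15 that did not pass (-0.28 to -0.01, adjusted p = 0.108).

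Zeta enzymes are known, in humans as in flies, as maleylacetoacetate isomerases of tyrosine breakdown. Both Zeta genes fell. GstZ2 showed the largest fall of the whole family, with 6.01, 6.09 and 6.26 on the dBigH1-induced arrays and 6.64, 6.66 and 6.73 on the S2 control arrays. That is a log2 change of -0.56 (SE 0.07, adjusted p = 0.0003153), or 1.47-fold. Its neighbour GstZ1 read 8.86, 8.99 and 8.94 in dBigH1-induced cells and 9.16, 9.06 and 9.16 in S2 control cells, and fell by 0.20 (SE 0.06, adjusted p = 0.02818). The call of GstZ1 was lost without dBigH1-induced replicate 1 (adjusted p = 0.1002) or 3 (0.07011) and without S2 control replicate 1 (0.08266) or 3 (0.08245).

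Theta, a class that vertebrates share, held members that moved in opposite directions. GstT4 was the gene of the family that rose. It read 10.65, 10.66 and 10.62 on the dBigH1-induced arrays and 10.25, 10.32 and 10.37 on the S2 control arrays, a log2 change of 0.33 (SE 0.05, adjusted p = 0.001247), or 1.26-fold. GstT2 read 10.52, 10.50 and 10.48 in dBigH1-induced cells and 10.87, 10.66 and 10.79 in S2 control cells, and fell by 0.27 (SE 0.06, adjusted p = 0.007935). The arrays did not overlap for either gene. GstT1, which lies beside GstT2, read 12.55, 12.57 and 12.62 in dBigH1-induced cells and 12.47, 12.48 and 12.50 in S2 control cells, a change of 0.09 that did not pass (-0.02 to 0.20, adjusted p = 0.2087). GstT3 changed by -0.10 (-0.22 to 0.01, adjusted p = 0.1937).

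The Sigma class has a single gene in flies, GstS1, whose enzyme is plentiful in flight muscle and acts on lipid peroxidation products. GstS1 read 8.54, 8.55 and 8.79 in dBigH1-induced cells and 8.59, 8.68 and 8.54 in S2 control cells, which overlap. Its change was 0.02 (95% interval -0.14 to 0.19, adjusted p = 0.8672), and the name of its probe set marks probes that may share transcripts.

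Values were next set along the tandem clusters, in the gene order of RefSeq's Release 6 table. By arm, 13 measured members lie on 3R, 16 on 2R, 3 on 3L and 2 on X, of which 8, 9, 2 and 0 fell. The Delta cluster on 3R runs GstD10, GstD9, GstD1, GstD2, GstD3, GstD4, GstD5, GstD6, GstD7, GstD8 and, past CG10035, GstD11. Called falls and genes that did not pass alternate from GstD10 to GstD4, and the next 3 genes, GstD5 to GstD7, then all fell. The 10 Epsilon genes of the 2R cluster run from GstE10 through GstE1 to GstE9, and 5 of the 9 measured ones fell. The genes at both ends, GstE10 and GstE9, did not pass, and neither did GstE3 and GstE6 within the cluster. The Delta and Epsilon genes arose by tandem duplication and can be alike in sequence. Probe sequences were not used here, so signal shared between neighbouring genes cannot be told apart from signal of each gene's own.

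**Figure D3:**
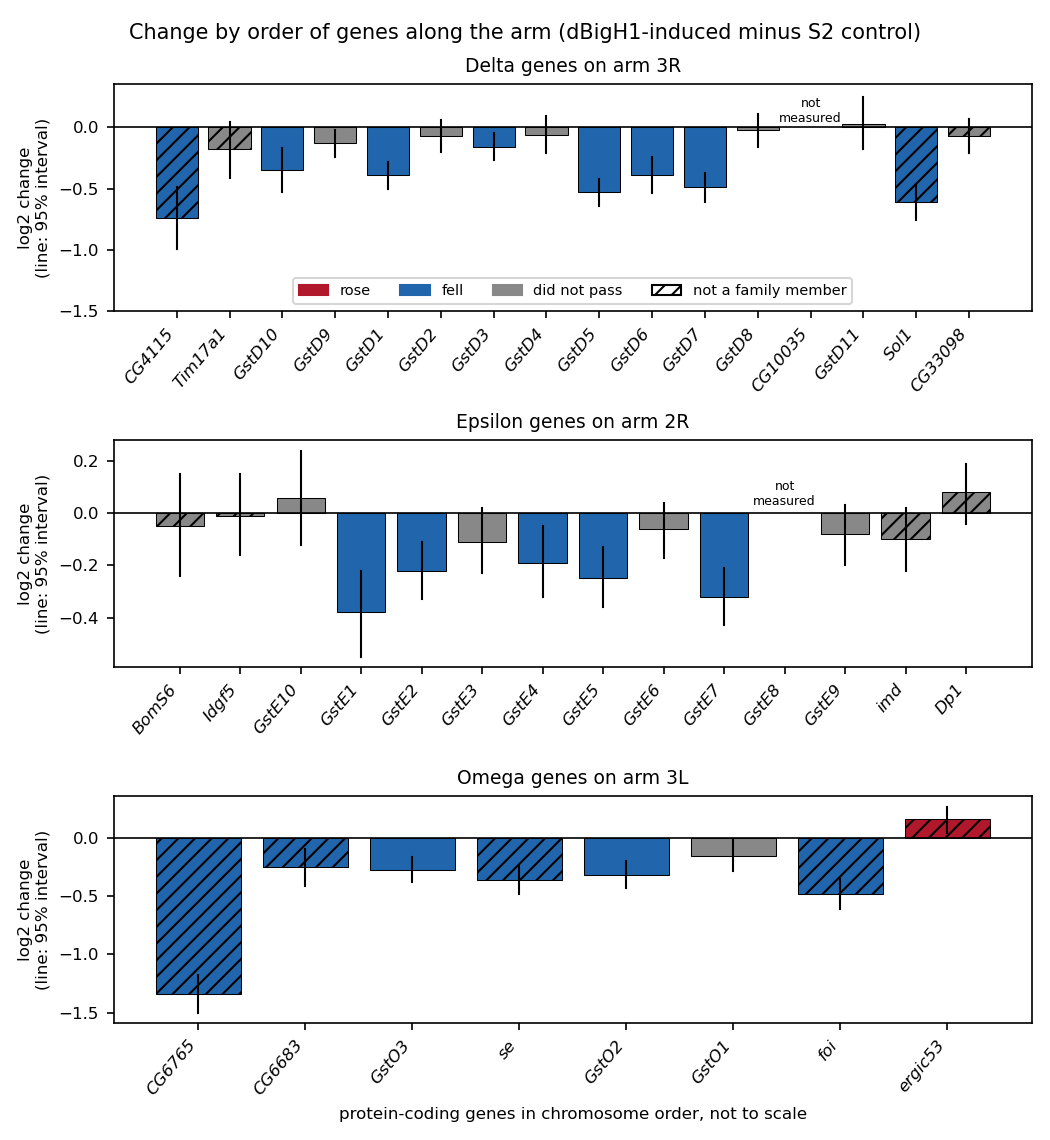
Bars are log2 changes, dBigH1-induced minus S2 control, with 95% intervals, for protein-coding genes in chromosome order around the Delta, Epsilon and Omega clusters; hatched bars are genes outside the family. GstD5, GstD6 and GstD7 form a run of falls of 0.53, 0.39 and 0.49, while GstD8 next to them stands at -0.02; CG10035 and GstE8 had no probe set of their own.

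The next question was whether the genes that supply glutathione and control the family differed too. Of 4 measured genes of glutathione synthesis and turnover, 2 fell, 0 rose and 2 did not pass (3 at an unadjusted p under 0.05). These 4 genes all lie above the median signal, where 42.3% of all genes were called, so 2 of 4 called is near that share. By direction, 21.3% of all genes above that median fell and 21.1% rose. Both subunits of glutamate-cysteine ligase, the first and rate-setting enzyme of glutathione synthesis, were lower. Gclc, the catalytic subunit, read 11.80, 11.76 and 11.85 in dBigH1-induced cells and 12.14, 12.31 and 12.16 in S2 control cells, and fell by 0.40 (SE 0.06, adjusted p = 0.0009286). Gclm, the modifier subunit, read 8.12, 8.15 and 8.38 in dBigH1-induced cells and 9.02, 9.15 and 9.12 in S2 control cells, and fell by 0.88 (SE 0.08, adjusted p = 2.611e-05), or 1.84-fold. The fall of Gclm was larger in size than that of any family member. Ggt-1, a gamma-glutamyl transferase gene of glutathione breakdown, changed by -0.10 (adjusted p = 0.2343), and CG4829 by 0.13 (adjusted p = 0.1102).

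Of 8 measured genes with a glutathione S-transferase fold or activity outside the symbol rule, 3 fell, 1 rose and 4 did not pass. All 8 lie above the median signal, and the 4 called stand beside 42.3% of all such genes. The gene se, which makes an enzyme of red eye pigment and lies between GstO3 and GstO2, read 6.99, 6.98 and 7.06 in dBigH1-induced cells and 7.38, 7.33 and 7.42 in S2 control cells. It fell by 0.36 (SE 0.05, adjusted p = 0.0006881), so 3 of the 4 genes of this Omega cluster fell. Mgstl, the microsomal glutathione transferase gene, read 12.28, 12.31 and 12.28 in dBigH1-induced cells and 12.64, 12.55 and 12.65 in S2 control cells, and fell by 0.33 (SE 0.05, adjusted p = 0.001148). Its second, dim probe set changed by -0.07 (adjusted p = 0.5504). CG9393 fell by 0.31 (SE 0.06, adjusted p = 0.004236). The gene gfzf, which encodes a nuclear protein with zinc fingers and a glutathione S-transferase domain, rose by 0.25 (SE 0.06, adjusted p = 0.01342) and by 0.34 on its other probe set, with an adjusted p of 0.06017 without dBigH1-induced replicate 2. The changes were 0.06 for eEF1gamma, 0.04 for Clic, 0.07 for AIMP2 and -0.02 for Gdap1, which did not pass (adjusted p of 0.3631 to 0.8748).

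Of 10 regulators known for these genes, 4 fell, 0 rose and 6 did not pass (4 at an unadjusted p under 0.05). The 40.0% called is near the 42.3% of all genes above the median signal, where all 10 lie. All called regulators fell, where 21.3% of all genes above that median fell and 21.1% rose. The gene cnc, whose C isoform is the activator CncC, read 10.24, 10.13 and 10.16 in dBigH1-induced cells and 10.41, 10.54 and 10.40 in S2 control cells, and fell by 0.27 (SE 0.06, adjusted p = 0.007021). The isoforms of cnc were not separated here, and its second probe set, at 3.06 in dBigH1-induced and 3.10 in S2 control cells, did not pass (adjusted p = 0.6924). Keap1, the inhibitor of CncC, read 9.27, 9.12 and 9.01 in dBigH1-induced cells and 9.56, 9.71 and 9.58 in S2 control cells, and fell by 0.48 (SE 0.07, adjusted p = 0.001029). Both the activator gene and the inhibitor gene were thus lower. The small Maf gene maf-S, the partner of CncC, changed by -0.03 (adjusted p = 0.7179).

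Among the other regulators, Hr96, a nuclear receptor gene of the response to foreign compounds, fell by 0.21 (SE 0.06, adjusted p = 0.02325). Its call was lost without dBigH1-induced replicate 1 or 2 and without S2 control replicate 2 or 3, with an adjusted p of up to 0.08366 over all alternatives. The JNK gene bsk fell by 0.16 (SE 0.05, adjusted p = 0.04536), and by 0.22 and 0.25 on its other probe sets, although the brightest lost its call without any of the 3 induced arrays and without S2 control replicate 1 or 2, as it did with arrays centred on their medians (adjusted p of up to 0.1408). The Fos gene kay changed by -0.08 (adjusted p = 0.3204) but fell by 0.66 on its dimmer probe set (adjusted p = 8.023e-05). Cul3, whose product works with Keap1 in a ubiquitin ligase, changed by -0.01 (adjusted p = 0.9479), and its dimmer probe set rose by 0.84 (adjusted p = 8.906e-06). The probe sets of kay and of Cul3 therefore differ in call, although both changes of kay are negative. The Jun gene Jra changed by 0.10, the metal-response factor gene MTF-1 by -0.07 and foxo by 0.07, and none of these 3 passed (unadjusted p = 0.0633, 0.2931 and 0.2849).

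**Figure D4:**
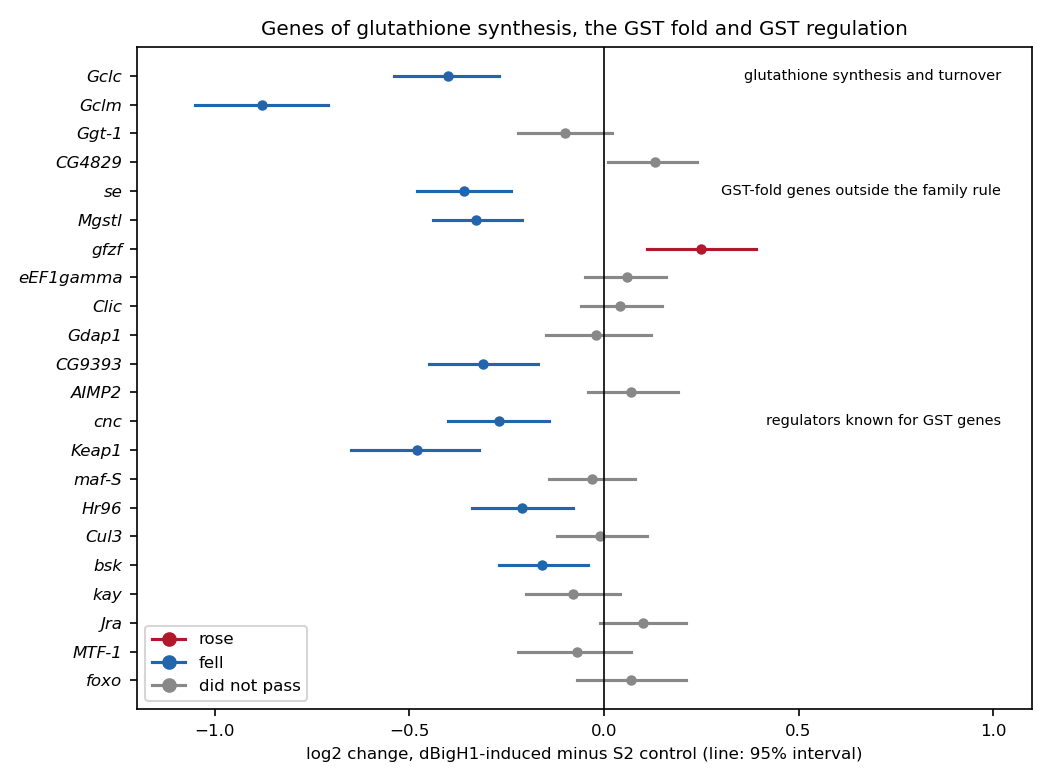
Points are log2 changes, dBigH1-induced minus S2 control, with 95% intervals, for genes of glutathione synthesis and turnover, of the glutathione S-transferase fold outside the symbol rule, and of family regulation (blue: fell; red: rose; grey: did not pass). Gclm at -0.88 lies farthest from 0, and cnc (-0.27) and Keap1 (-0.48) both lie to the left.

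Other enzymes linked to glutathione or thioredoxin, with 24 measured genes, were mostly not called: 5 fell, 2 rose and 17 did not pass, at a median of -0.03. The glutaredoxin gene Grx5 fell by 0.40 (SE 0.05, adjusted p = 0.0002953), and the thioredoxin gene Trx2 fell by 0.23 (SE 0.05, adjusted p = 0.005929). The peroxiredoxin gene Prx6c fell by 0.45 from a dim probe set, at 3.65 in dBigH1-induced and 4.10 in S2 control cells (adjusted p = 0.001581). The extracellular superoxide dismutase gene Sod3 rose by 0.45 (SE 0.06, adjusted p = 0.0005997) and the glyoxalase gene Glo1, which uses glutathione, rose by 0.30 (SE 0.05, adjusted p = 0.002754). In this list 29.2% of genes were called, beside 30.5% of all genes and 42.3% of those above the median signal, where 18 of the 24 lie.

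Of 25 measured genes of other xenobiotic enzymes and transporters, 8 fell, 3 rose and 14 did not pass, at a median of -0.06. That is 44.0% called, beside 30.5% of all genes and 42.3% of those above the median signal, where 13 of the 25 lie. The cytochrome P450 gene Cyp28d1 read 9.10, 9.02 and 8.94 in dBigH1-induced cells and 10.08, 10.15 and 10.18 in S2 control cells, and fell by 1.12 (SE 0.06, adjusted p = 1.000e-06). The ABC transporter gene Mdr50 fell by 0.99 (SE 0.06) and Cyp6a8 fell by 0.85 (SE 0.06). In the other direction, the UDP-glycosyltransferase gene Ugt35A1 rose by 0.73 (SE 0.07), the sulphotransferase gene St4 by 0.51 (SE 0.05) and the esterase gene alpha-Est7 by 0.25 (SE 0.06, adjusted p = 0.008859). In 4 of the 25 genes (Cyp28d1, Mdr50, Cyp6a8 and Ugt35A1) the change was larger in size than the 0.56 of GstZ2, while the median size of change was 0.16 in this list and 0.21 in the family.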

How the data were processed

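Total RNA of 6 samples of S2 cells (25 ng each) was amplified, labelled with biotin and hybridised to Affymetrix arrays, 1 per sample, per the labels' protocols. The authors deposited RMA values, which are log2 signals, 1 for each probe set; RMA is named in the submitters' processing notes, without a version. Since RMA equalises the distributions of the arrays, a shift shared by all transcripts cannot be seen. Of 18952 probe sets, 183 platform controls were left out and 18769 were tested. The platform annotation named 1 gene for 13647 probe sets, several genes for 402 and no gene for 4720. Current symbols came from RefSeq's Release 6 table, matched by gene identifier for 13544 of the one-gene probe sets, and so did arms and gene order; no family symbol changed, and no probe set of several genes named a member.

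The groups were compared with limma 3.58.1 under R 4.3.3 (functions lmFit and eBayes, group as the only term, two-sided, Benjamini-Hochberg over all tested probe sets, threshold 0.05; prior SD 0.0754 on 5.50 prior degrees of freedom, and 4 residual ones). This fit gave all adjusted p-values. "Rose" and "fell" mark what passed, and log2 changes are dBigH1-induced minus S2 control. With 3 arrays against 3, the smallest p of an exact permutation test is 0.1. The fit was tested on simulated arrays (10 draws, 18769 probe sets, few of them changed, which makes the adjustment stricter than in these data): it recovered 39.0% of probe sets moved by a log2 of 0.25 and 99.6% at 0.5, with 4.68% of calls false. Replicate numbers did not pair the samples (correlation of deviations 0.04, -0.10 and 0.01). The labels give 1 date for all samples and name no batches, so batches could not be examined.

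The members and the lists were chosen with earlier results of these data known, and lists are described by counts with no test. Every member is reported, as are all measured genes of the first 3 related lists and up to 3 called genes per direction of the other 2. Alternatives were other scalings, a filter on dim probe sets, other variance moderation, array weights, a replicate block, each array left out, averaging the probe sets of each gene, and stricter calls. Sequences of the genes, their promoters and proteins were not analysed here.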

Additional observations from a re-analysis of the deposited data

How the results depend on the processing

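The median log2 change of the family lay between -0.22 and -0.16 over the alternatives, beside -0.19. Other variance moderation, the replicate block and stricter calls cannot move a log2 change, so they do not bear on this median. The number of genes that fell was 14 to 17 with 1 array left out, against 19, and 13 at an adjusted p under 0.01. It was 18 of 29 members without dim probe sets, where GstE4 and GstE5 were left out and GstD9 fell (adjusted p = 0.03034). The number was 18 after a further quantile normalisation and 20 with arrays centred on ribosomal protein genes. With the replicate number as a block 16 fell and 1 rose; GstD3, GstE4 and GstZ1 lost their call, and the samples shared only a number. With trended robust moderation 2 genes rose, GstT1 (adjusted p = 0.02287) besides GstT4, and GstD9 fell (0.007742) while GstE4 did not pass (0.06516). A requirement of at least 2-fold left 0 that rose, 0 that fell and 1 of the 28 called genes of the related lists (Cyp28d1). Of these 28, 24 kept their call under every setting of the fit; the others were gfzf, cnc (adjusted p = 0.06256 on the mean of its probe sets), Hr96 and bsk. Centring or scaling moved the median of all probe sets by no more than 0.02. Signals near the top or the bottom of the range limit what could be seen for GstE6, GstO3, GstD11, GstE4, GstE5, GstE10 and GstE14. The cause of these differences was not tested.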

Other observations

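The 2 nearest protein-coding genes on each side were taken for each run of neighbouring family members. Of the 20 flanking genes of the 5 runs with at least 2 members, 11 fell, 2 rose and 7 did not pass, or 65.0% called. Of the 25 measured flanking genes of single members, 5 fell, 4 rose and 16 did not pass, or 36.0% called. Of all genes 16.0% fell and 14.5% rose, or 30.5% called, and 42.3% of those above the median signal were called. The flanking genes were not split by signal. Beside the Delta cluster, CG4115 fell by 0.74 (adjusted p = 0.000852) and Sol1 fell by 0.61 (adjusted p = 0.0001266), while Tim17a1 (-0.18) and CG33098 (-0.07) did not pass. Beside the Omega cluster, CG6765 fell by 1.34 (adjusted p = 1.072e-06), CG6683 fell by 0.25 (adjusted p = 0.02683), and the zinc transporter gene foi fell by 0.48 (adjusted p = 0.0002431). Beyond foi, ergic53, a cargo receptor gene of the secretory pathway, rose by 0.16 (adjusted p = 0.04766). Next to GstZ2, CG16779 fell by 1.40 (adjusted p = 1.667e-05) and phu fell by 1.05 (adjusted p = 6.700e-06), while on the other side ps, next to GstZ1, changed by 0.12 (adjusted p = 0.1314) and alpha-Man-IIa beyond it rose by 0.41 (adjusted p = 0.0009146). Beside GstT1 and GstT2 all 4 flanking genes fell, CG30340 by 0.24, CG30339 by 0.28, CG12926 by 0.66 and Mmp2 by 0.20. Around the Epsilon cluster the neighbours BomS6, Idgf5, imd and Dp1 had changes of -0.05, -0.01, -0.10 and 0.08, and 0 of the 4 passed in limma, with 0 at an unadjusted p under 0.05.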
